A study of Rattus norvegicus with 8 samples.

Results

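The lineage genes of connective tissue and smooth muscle described here (10 of the 31699 rows of the deposited table) were compared between annulus fibrosus cells (AFCs) labelled Lv-Ctrl and Lv-Piezo1, all under mechanical stretch. They were chosen by gene symbol in 3 groups. Scx, Mkx and Tnmd form the fibrous group, Sox9, Sox5, Sox6 and Runx2 the chondrogenic group, and Srf, Myocd and Klf4 the contractile group. Each symbol had 1 row in the table. Most of them encode transcription factors, while Myocd encodes a transcriptional coactivator and Tnmd encodes tenomodulin, a membrane protein of mature tendon cells.

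AFCs are the cells of the outer ring of the intervertebral disc, where lamellae of type I collagen give way inward to cartilage-like matrix. Scleraxis (Scx) and Mohawk (Mkx) drive collagen I-rich fibrous matrix in tendon and outer annulus. Sox9 with Sox5 and Sox6 drives cartilage matrix, and Runx2 drives chondrocyte hypertrophy and bone. Serum response factor (Srf) binds the CArG box and, with its coactivator myocardin (Myocd), switches on contractile genes of smooth muscle, a step that Klf4 represses in that cell type.

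The cells came from Sprague Dawley rats and were infected with a lentivirus made from pLVX-shRNA-Puro. It was either the control vector (genotype label Ctrl) or one with a short hairpin RNA against Piezo1 (genotype label Piezo1 knock down). Mechanical stretch, given to induce apoptosis, was common to all 8 samples, and no unstretched sample was analysed here. Annulus tissue of several rats was pooled for each isolation and the cells were passaged before treatment, so a sample is a culture and not an animal. Each group had 4 samples, described by the study as in vitro biological repeats, so p-values measure the spread between these cultures. The ages of the rats behind these cells were not used here. Values are TPM (transcript abundance per sample total), which are per transcript length and can be compared between genes but keep no sequencing depth. Changes were tested on log2(TPM + 1), where the added 1 makes changes of weakly expressed genes look smaller than they are. A gene rose or fell where limma's adjusted p was below 0.05 over the 13103 tested genes, and it was called where the log2 change was also at least 1 in size.

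Piezo1 itself, the mechanosensitive channel targeted by the hairpin, went against the label. Its TPM was 31.1, 33.0, 26.7 and 29.5 in Lv-Ctrl replicates 1 to 4 and 38.1, 37.7, 40.2 and 41.4 in the libraries labelled Lv-Piezo1. The log2 change was 0.38 (adjusted p = 8.6e-04), so a direction below is that of the labels and not of a lower Piezo1 transcript level. The study reports a separate check that the hairpin worked, and TPM does not show the level of Piezo1 protein. Between 16645 and 17022 rows were above 0 in a sample labelled Lv-Ctrl and between 17191 and 17657 in one labelled Lv-Piezo1. The median log2 change of all tested genes was 0.14, and scaling the columns by median ratios moved it to -0.0046. Of the genes that passed the adjusted p threshold, 72.0% were higher in the samples labelled Lv-Piezo1 as deposited and 50.04% after that scaling, and of the called genes 64.1% and 52.3%.

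The 3 groups of genes did not move as blocks. Within the fibrous group Scx rose 1.89-fold and Mkx fell 1.74-fold. Within the chondrogenic group Runx2 rose 1.37-fold, Sox5 fell 1.64-fold and the mean of Sox9 was 3.89 TPM in one group and 3.86 TPM in the other. In the contractile group Myocd rose 3.67-fold and Srf 1.64-fold, while Klf4 did not pass the threshold. Fewer cells of a type and less RNA per cell cannot be told apart in these bulk samples.

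Of the 10 genes 8 passed the filter of a mean of 1 TPM over all samples, and Tnmd and Sox6 did not. Myocd was the 1 called gene, against 7.67% of all tested genes in either direction and 4.91% called higher. Among the 8, 6 passed the adjusted p threshold, against 58.2% of all tested genes. Of these, 4 were higher in the samples labelled Lv-Piezo1 (41.9% of all tested genes were) and 2 were lower (16.3%). In the same 6 the values of the groups did not overlap, as in 54.2% of all tested genes. The shares among these genes were thus near those of the whole table, and what follows concerns the single genes. The median log2 change of the 8 was 0.29, beside 0.14 for all tested genes.

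**Figure D1:**
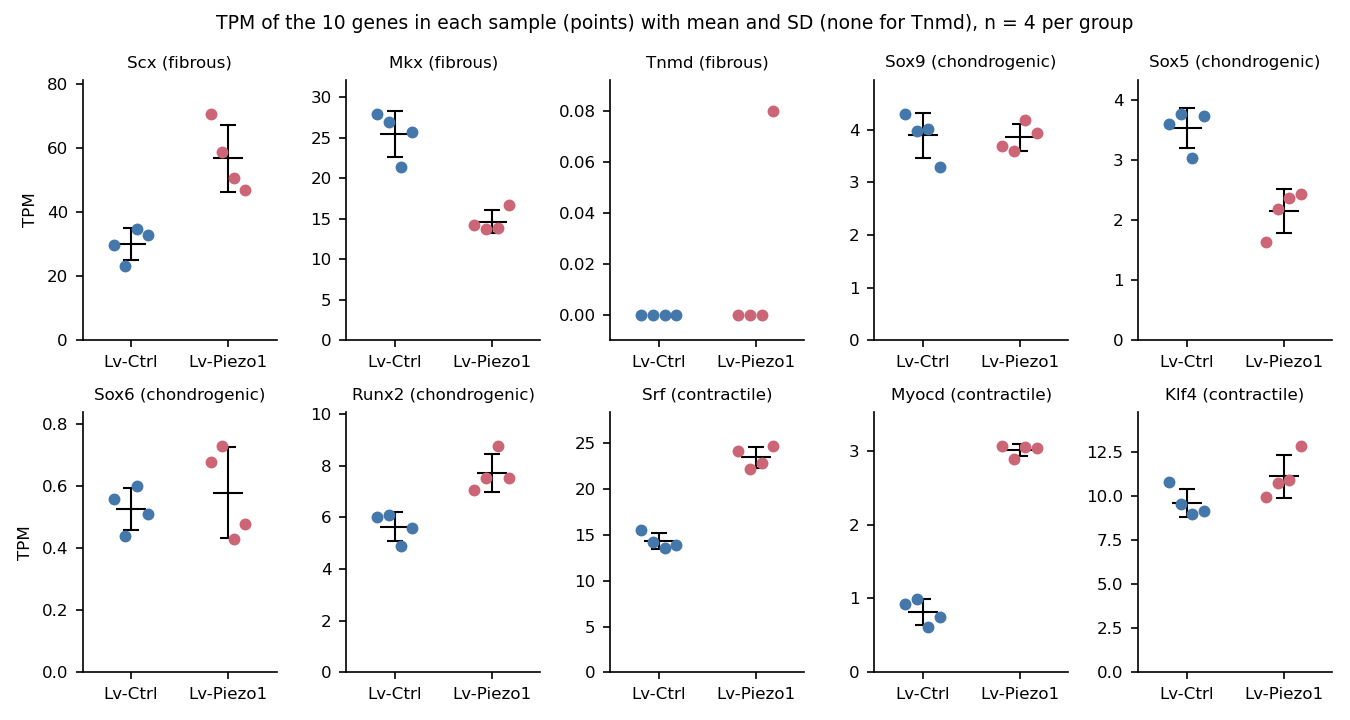
TPM (vertical axes, linear, own scale for each gene) of the 10 genes in each of the 4 samples of a group, with mean and SD except for Tnmd. Scx, Runx2, Srf and Myocd lie wholly higher and Mkx and Sox5 wholly lower in the samples labelled Lv-Piezo1, whereas the points of Sox9, Sox6 and Klf4 overlap.

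The order of the levels differed between the groups. In the samples labelled Lv-Ctrl it ran from Scx (30.1 TPM) and Mkx (25.4) through Srf (14.3), Klf4 (9.62), Runx2 (5.65), Sox9 (3.89) and Sox5 (3.54) to Myocd (0.820), Sox6 (0.528) and Tnmd (listed at 0). There, the sample ranges of Scx and Mkx overlapped, as did those of Sox9 and Sox5, and no other neighbours did. In the samples labelled Lv-Piezo1, Scx (56.8 TPM) was followed by Srf (23.5), Mkx (14.6), Klf4 (11.1), Runx2 (7.73), Sox9 (3.86), Myocd (3.01), Sox5 (2.16) and Sox6 (0.580). No neighbours among these 9 overlapped, so that Srf stood above Mkx and Myocd above Sox5, both the reverse of their order in Lv-Ctrl.

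Scx, the basic helix-loop-helix factor that marks tendon and ligament progenitors, was the most abundant of the 10 in both groups. Values after ± are SDs of 4 samples throughout. Its TPM was 29.7, 23.1, 34.6 and 32.8 in the samples labelled Lv-Ctrl (30.1 ± 5.05, SD, n = 4). In those labelled Lv-Piezo1 it was 70.6, 58.8, 50.6 and 47.0 (56.8 ± 10.5, SD, n = 4). The lowest of the latter stood above the highest of the former, and the 4 high values were themselves spread widely. On the log2(TPM + 1) scale the change was 0.89 (SE 0.15, 95% confidence interval 0.56 to 1.23, limma adjusted p = 7.7e-04), larger than that of 93.1% of tested genes. The estimate stayed just below the limit of 1, and Scx was therefore not called. In RefSeq's GRCr8 annotation the gene overlaps Bop1, a ribosome biogenesis gene, and the sources used here do not say whether the counting used strand. Bop1 had 25.5 ± 0.568 TPM under Lv-Ctrl and 31.3 ± 1.32 TPM under Lv-Piezo1, with a log2 change of 0.29 (adjusted p = 3.1e-04). The part of shared reads in the value of Scx was not tested.

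Mkx, a homeobox factor needed for collagen fibril growth in tendon, moved the other way. Its TPM was 27.9, 26.9, 21.3 and 25.6 in the samples labelled Lv-Ctrl (25.4 ± 2.89) and 14.2, 13.7, 13.8 and 16.7 in those labelled Lv-Piezo1 (14.6 ± 1.41). All 4 of the latter were below all of the former. It fell by 0.76 on the log2(TPM + 1) scale (SE 0.09, 95% confidence interval -0.97 to -0.55, adjusted p = 1.0e-04). Only 4.88% of tested genes had a more negative value.

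Tnmd, which Scx is known to activate in tendon, was listed at 0 in all samples labelled Lv-Ctrl and in 3 of the 4 labelled Lv-Piezo1. The remaining one, replicate 4, had 0.08 TPM. It was below the filter and was not tested in the model, and the exact two-sided permutation test gave p = 1.00.

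The ratio of 2 genes within a sample does not change when a column is multiplied by a constant, as in median-ratio scaling. Quantile normalization can change such a ratio, and the ratios were not recomputed under it. The Scx to Mkx ratio of TPM was 1.07, 0.859, 1.62 and 1.28 in the samples labelled Lv-Ctrl (1.21 ± 0.325). It was 4.96, 4.31, 3.67 and 2.82 in those labelled Lv-Piezo1 (3.94 ± 0.913), with no overlap. Scx exceeded Mkx in every sample labelled Lv-Piezo1, but not in replicate 2 of Lv-Ctrl.

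Sox9, the master factor of the chondrocyte lineage, did not pass the test. It had 4.30, 3.97, 4.01 and 3.29 TPM in the Lv-Ctrl samples (3.89 ± 0.428) and 3.70, 3.60, 4.18 and 3.94 TPM in those labelled Lv-Piezo1 (3.86 ± 0.259). The samples of both groups were interleaved. The log2 change was -0.01 (SE 0.09, adjusted p = 0.94) with a 95% confidence interval of -0.20 to 0.19. Quantile normalization gave -0.23 with an adjusted p of 0.033, so whether Sox9 passed the adjusted p threshold depended on the scaling.

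Sox5, a partner of Sox9 that lacks a transactivation domain of its own, fell. Its TPM was 3.60, 3.77, 3.04 and 3.73 in the samples labelled Lv-Ctrl (3.54 ± 0.338) and 1.63, 2.19, 2.37 and 2.43 in those labelled Lv-Piezo1 (2.16 ± 0.365). The highest of the latter lay below the lowest of the former. The log2 change was -0.53 (SE 0.11, 95% confidence interval -0.78 to -0.28, adjusted p = 0.0028). Several long non-coding RNA loci and a protein-coding locus overlap Sox5 in the RefSeq annotation. The part of shared reads in the value of Sox5 was not tested.

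Sox6, the close relative of Sox5 with which it acts on cartilage genes, stayed below 1 TPM everywhere. It had 0.56, 0.44, 0.60 and 0.51 TPM in the Lv-Ctrl samples and 0.68, 0.73, 0.43 and 0.48 TPM in those labelled Lv-Piezo1. The lowest and the highest value both came from the latter group, and a permutation test, exact and two-sided over 70 relabelings, gave p = 0.60. With the filter removed the log2 change was 0.05 (95% confidence interval -0.13 to 0.22, adjusted p = 0.67).

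The ratio of Sox9 to Sox5 separated the groups. It stood at 1.19, 1.05, 1.32 and 0.882 in the samples labelled Lv-Ctrl (1.11 ± 0.188) and at 2.27, 1.64, 1.76 and 1.62 in those labelled Lv-Piezo1 (1.83 ± 0.303), without overlap. Mkx and Sox5, which both fell, had a ratio of 7.19 ± 0.388 in Lv-Ctrl and 6.91 ± 1.29 in Lv-Piezo1, with overlapping samples.

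Runx2, the master factor of osteoblasts and hypertrophic chondrocytes, rose. Its TPM was 6.0, 6.10, 4.88 and 5.61 in the samples labelled Lv-Ctrl (5.65 ± 0.554) and 7.07, 7.54, 8.76 and 7.54 in those labelled Lv-Piezo1 (7.73 ± 0.723). The groups did not overlap. The log2 change of 0.39 (SE 0.08, 95% confidence interval 0.20 to 0.59, adjusted p = 0.0034) was 0.25 above the median of all tested genes. Supt3h, a transcription cofactor gene whose locus overlaps Runx2, went from 4.87 ± 0.598 to 6.38 ± 0.945 TPM (log2 change 0.33, adjusted p = 0.029). It did not pass the threshold after median-ratio scaling (0.19, adjusted p = 0.21) or with quantile normalization (0.13, adjusted p = 0.41). The part of shared reads in the value of Runx2 was not tested.

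The promoter of Runx2 is shown because the protein is known to bind its own promoter. RefSeq gave 8 windows of 300 bases for 6 of the 10 genes (Srf, Mkx, Runx2, Sox6, Klf4 and Tnmd), from 250 bases before to 50 after a transcript start in the GRCr8 build. One of the 2 Runx2 windows held 3 matches to the RUNX motif TGTGGT, searched on both strands, where it reads ACCACA on the opposite one. They began at -76, 28 and 36 from the start. Of all 33469 windows 17.3% held at least 1 match and 0.209% held 3 or more, and the other Runx2 window held none. The matches at -76 and 36 overlap matches to the E-box CANNTG, which begin at -74 and 40. The matches, in capitals, lie in the 250 bases before the start at chr9:23664808-23665057 and in the last 30 bases of the window at chr9:23665078-23665107, both on the plus strand.
Runx2 before the start: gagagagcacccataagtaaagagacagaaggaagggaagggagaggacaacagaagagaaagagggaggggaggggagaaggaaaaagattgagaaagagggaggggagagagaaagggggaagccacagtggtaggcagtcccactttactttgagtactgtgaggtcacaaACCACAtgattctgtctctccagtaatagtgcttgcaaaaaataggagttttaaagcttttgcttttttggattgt
Runx2 after the start: acaaacaACCACAgaACCACAagtgcggtg

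Srf, the factor that binds CArG boxes in growth-response and contractile genes, rose in all 4 samples labelled Lv-Piezo1. It had 15.6, 14.3, 13.6 and 13.9 TPM in the Lv-Ctrl samples (14.3 ± 0.894) and 24.2, 22.2, 22.9 and 24.7 TPM in those labelled Lv-Piezo1 (23.5 ± 1.14). A wide gap separated the groups. The log2 change was 0.68 (SE 0.06, 95% confidence interval 0.55 to 0.80, adjusted p = 8.8e-06), which gave Srf the smallest adjusted p of the 8 although it was not called. Scx and Srf both rose, and their ratio was 2.11 ± 0.425 in Lv-Ctrl and 2.42 ± 0.453 in Lv-Piezo1, with overlapping samples. Mkx to Srf went from 1.77 ± 0.137 to 0.620 ± 0.0379.

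The promoter of Srf is shown because Srf is known to regulate its own gene through CArG boxes. Its window held 2 CArG matches, at -81 and -61 from the start, searched on both strands. Of all 33469 RefSeq windows 1.64% held at least 1 CArG match, and 7 windows held 2 or more. No CArG match was found in the windows of the other 5 genes. The 250 bases before the start, at chr9:21923826-21924075 on the plus strand of GRCr8, carry both matches in capitals, and neither match shows that the site was bound in these cells.
Srf before the start: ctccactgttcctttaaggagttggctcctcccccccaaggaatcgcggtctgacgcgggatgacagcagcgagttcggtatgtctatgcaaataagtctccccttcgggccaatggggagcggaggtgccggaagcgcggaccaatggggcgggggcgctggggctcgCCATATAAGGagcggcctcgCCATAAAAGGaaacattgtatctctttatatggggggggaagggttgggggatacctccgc

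The 8 windows were also searched on both strands for the E-box CANNTG (in 72.1% of all windows), the SOX motif ACAAT (33.7%) and the KLF motif CACCC (54.9%). E-boxes were found for Sox6 and Runx2, SOX motifs for Sox6, Klf4, Srf, Runx2 and Tnmd, and KLF motifs for Srf, Runx2 and Mkx. Motifs this short are common, and a match is a description of the letters alone.

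Myocd, the coactivator that gives Srf its smooth muscle and heart targets, showed the largest change of the 8. Its TPM was 0.93, 0.99, 0.61 and 0.75 in the samples labelled Lv-Ctrl (0.820 ± 0.173) and 3.06, 2.88, 3.05 and 3.03 in those labelled Lv-Piezo1 (3.01 ± 0.0843). Every value of the latter was far above those of the former, and the 4 lay close together. The log2 change was 1.14 (SE 0.10, 95% confidence interval 0.91 to 1.38, adjusted p = 1.6e-05), above that of 95.8% of tested genes. Only 8.38% of tested genes had a lower mean TPM, and Myocd passed the filter through the group where it was higher. With a pseudocount of 0.1 the change was 1.77, because the pseudocount of 1 compresses so low a gene, and with quantile normalization it was 0.92 and no longer called. A long non-coding RNA locus overlaps Myocd in the RefSeq annotation, and the part of shared reads in its value was not tested.

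Klf4, a zinc finger factor that opposes myocardin in smooth muscle cells, overlapped between the groups. It had 10.8, 9.54, 9.0 and 9.17 TPM in the Lv-Ctrl samples (9.62 ± 0.804) and 9.94, 10.8, 10.9 and 12.8 TPM in those labelled Lv-Piezo1 (11.1 ± 1.22). Lv-Ctrl replicate 1 lay within the range of the other group. The log2 change was 0.19 (SE 0.08, 95% confidence interval -0.0023 to 0.38, adjusted p = 0.083), close to the median of all tested genes. It passed the threshold without Lv-Ctrl replicate 1 (0.24, adjusted p = 0.040) and without Lv-Piezo1 replicate 1 (0.23, adjusted p = 0.049), and it was 0.04 after median-ratio scaling (adjusted p = 0.66). A protein-coding locus overlaps Klf4 in the RefSeq annotation, and the part of shared reads in its value was not tested.

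The contractile factors also shifted against each other. Myocd to Klf4 was 0.0863, 0.104, 0.0678 and 0.0818 in the samples labelled Lv-Ctrl and 0.308, 0.267, 0.280 and 0.236 in those labelled Lv-Piezo1. The means were 0.0849 ± 0.0148 and 0.273 ± 0.0297, and no sample overlapped. Mkx to Myocd went from 31.6 ± 3.66 to 4.85 ± 0.442. Of the 28 ratios among the 8 tested genes 21 did not overlap between the groups, against 53.7% of the ratios of all pairs of genes above 0 in every sample. Every ratio with Myocd, which passed the filter through the group where it was higher, was among the 21. Ratios that share a gene are not independent of each other, so the count is a description. The 7 ratios that overlapped were those of Scx to Runx2, Srf and Klf4, Mkx to Sox5, Sox9 to Klf4, and Runx2 to Srf and Klf4.

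**Figure D2:**
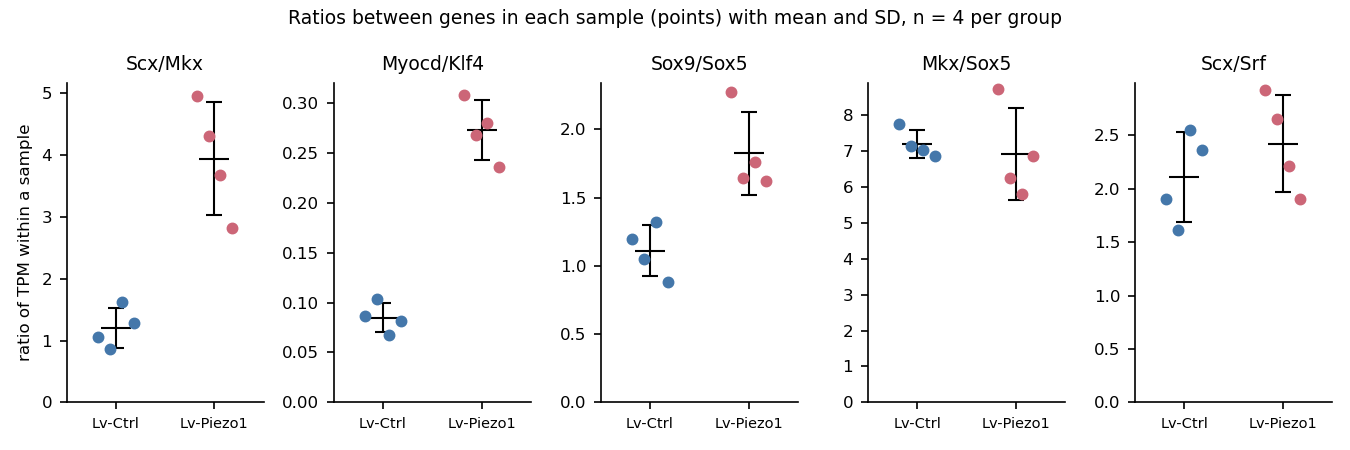
Ratio of the TPM of 2 genes within a sample (vertical axes, linear from 0) for 5 pairs, with the 4 samples of each group as points and mean and SD as bars. Scx/Mkx, Myocd/Klf4 and Sox9/Sox5 are higher in all samples labelled Lv-Piezo1, whereas Mkx/Sox5 and Scx/Srf overlap between the groups.

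**Figure D3:**
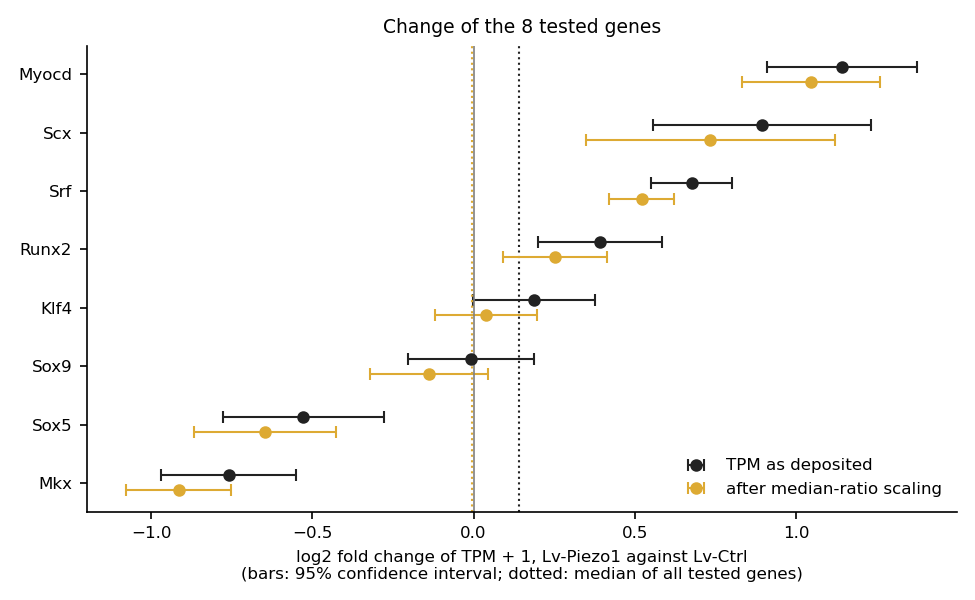
Log2 change of TPM + 1 (horizontal axis, Lv-Piezo1 against Lv-Ctrl) of the 8 tested genes with 95% confidence intervals, as deposited in black and after median-ratio scaling in yellow, and the median of all tested genes as dotted lines. Scaling shifts every gene to the left, from 1.14 to 1.05 for Myocd and from -0.76 to -0.91 for Mkx, and keeps the direction of all 8.

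The genes most like Myocd over the 8 samples were Gcn1 (Pearson r = 0.9994), which senses stalled ribosomes, and Pomgnt1 (r = 0.9991), a glycosyltransferase. Gcn1 went from 30.2 ± 1.31 to 47.1 ± 0.607 TPM and Pomgnt1 from 50.1 ± 1.73 to 70.2 ± 1.17 TPM. Of 9061 genes ranked, 1844 had r of at least 0.95, since all samples share the same pair of group levels.

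Genes that surround the 10 in their known pathways were described from 11 lists of 185 symbols. Of 126 tested, 30 were called (23.8% against 7.67% of all tested genes), 26 higher and 4 lower. These lists were written with earlier results of these data known, so the share is a description.

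Contractile genes of smooth muscle, the known targets of Srf and myocardin, held the largest part. Of 15 genes, all tested, 9 were called higher and none lower, 14 rose, and the median log2 change was 2.01. Median-ratio scaling left 12 that rose (median 1.85) and quantile normalization 13 (median 1.87), with 9 called higher under each. Acta2, smooth muscle actin, rose from 51.2 ± 2.27 to 1344 ± 40.5 TPM (log2 change 4.69, adjusted p = 5.7e-12). Myh11, the smooth muscle myosin heavy chain, rose from 1.80 ± 0.219 to 47.9 ± 1.31 TPM (4.13). The one that fell was Itga8, an integrin subunit, from 86.6 ± 10.0 to 65.7 ± 5.41 TPM (-0.39, adjusted p = 0.0047, overlapping samples), named after its value was seen.

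Early growth-response targets of Srf moved differently. Of 8 tested, 1 was called higher, 2 rose and 4 fell, and the median was -0.16. Egr2, a zinc finger factor also active in tendon, rose from 1.53 ± 0.120 to 4.54 ± 0.0907 TPM (1.13, adjusted p = 2.3e-06). Its change was 0.91 with quantile normalization, and it was then not called. After median-ratio scaling 1 gene of the list rose and 6 fell, with a median of -0.32. Chosen after its value was seen, Egr1, a mechanosensitive inducer of tendon collagen, fell from 194 ± 16.5 to 128 ± 5.37 TPM (-0.60, adjusted p = 3.5e-05).

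Among 20 tested cofactors and relatives of the Srf complex 3 were called higher and 1 lower, 16 rose and 1 fell, with a median of 0.41. Of the same genes 14 rose and 2 fell after median-ratio scaling (median 0.25). With quantile normalization 13 rose and 2 fell (median 0.28). Csrp2, a LIM protein that bridges Srf and Gata factors, rose from 11.2 ± 1.21 to 36.4 ± 2.84 TPM (1.61). Gata4 went from 0.210 ± 0.128 to 1.99 ± 0.255 TPM (log2 change 1.31, passing the filter through the higher group) while its relative Gata6 fell from 8.26 ± 0.641 to 3.27 ± 0.393 TPM (-1.12). Chosen after their values were seen, the actin-sensing Srf coactivators differed in level. Mrtfa rose from 29.3 ± 1.57 to 43.8 ± 0.962 TPM (0.57, adjusted p = 7.0e-06), and Mrtfb had 1.76 ± 0.643 and 1.94 ± 0.271 TPM (0.12, adjusted p = 0.60).

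Other KLF factors, 11 tested, counted 1 called higher, 5 that rose and 2 that fell (median 0.28). Klf7 was the called one, from 0.733 ± 0.170 to 2.71 ± 0.499 TPM (log2 change 1.10, adjusted p = 9.9e-05), and it passed the filter through the higher group. With quantile normalization Klf7 changed by 0.86 and no gene of this list was called. Under that normalization 4 genes of the list rose and 3 fell (median 0.07). The counts after median-ratio scaling were also 4 and 3 (median 0.14). Klf10, a TGF-beta-induced factor chosen after its value was seen, rose from 3.61 ± 0.321 to 8.06 ± 0.430 TPM (0.98).

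Regulators of tendon fate, 19 of 23 tested, had 4 called higher and none lower, 8 that rose and 5 that fell, with a median of 0.27. Median-ratio scaling gave 8 that rose and 6 that fell (median 0.12). With quantile normalization 8 rose and 6 fell (median 0.09), and 3 were called higher. Id1, an inhibitor that binds the E protein partners of factors such as Scx, rose from 22.3 ± 2.44 to 68.7 ± 4.29 TPM (log2 change 1.58, adjusted p = 3.4e-07). Eya2, a transcriptional cofactor in muscle and tendon development, went from 0.135 ± 0.0420 to 1.88 ± 0.465 TPM (1.33) and passed the filter through the higher group.

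Fibrous matrix genes, known as targets of Scx and Mkx, moved both ways. Of 17 tested, 4 were called higher and 2 lower, 11 rose and 3 fell (median 0.48), and median-ratio scaling gave 2 called higher and 3 lower. Thbs4, a tendon thrombospondin, rose from 56.4 ± 2.95 to 529 ± 15.9 TPM (3.21, adjusted p = 1.2e-10), and its relative Comp went from 0.738 ± 0.216 to 2.86 ± 0.221 TPM (1.16, passing the filter through the higher group, and 0.93 with quantile normalization, no longer called). The small proteoglycan Dcn fell from 1456 ± 69.3 to 519 ± 14.9 TPM (-1.49), and the fibril-associated collagen Col12a1 fell from 1560 ± 203 to 517 ± 39.6 TPM (-1.59). Chosen after their values were seen, Col1a1 rose from 3282 ± 137 to 5835 ± 103 TPM (0.83) and Fmod, a collagen-binding proteoglycan, fell from 68.4 ± 4.45 to 34.0 ± 1.40 TPM (-0.99).

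Cartilage genes downstream of Sox9 were mostly low, with 8 of 20 tested, 3 called higher, 7 that rose and 1 that fell (median 0.63). Matn4, a matrilin, rose from 4.33 ± 0.479 to 12.4 ± 0.616 TPM (1.33) and Wwp2, a ubiquitin ligase, from 12.9 ± 0.833 to 30.3 ± 1.60 TPM (1.18). Col2a1, the main cartilage collagen and named after its value was seen, had 0.470 ± 0.0804 and 0.428 ± 0.155 TPM and was not tested. Among other SOX factors 4 of 13 were tested and none was called. Of these, 2 rose and 1 fell (median -0.02) as deposited, and 1 rose and 2 fell with median-ratio scaling (median -0.14) and with quantile normalization (median -0.23).

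Partners and regulators of Runx2 had 8 of 14 tested, 1 called higher, 3 that rose and 2 that fell. Their median was 0.18 as deposited, 0.05 with the columns scaled by median ratios and -0.03 with quantile normalization. Msx2, a homeobox factor of bone, rose from 0.793 ± 0.102 to 5.69 ± 0.824 TPM (1.89, adjusted p = 9.0e-07) and passed the filter through the higher group. Bone and hypertrophy genes downstream of Runx2 had 6 of 12 tested, 1 called in each direction, 2 that rose and 3 that fell (median -0.28). Mmp13, the collagenase of hypertrophic cartilage, fell from 888 ± 57.3 to 227 ± 14.3 TPM (-1.96, adjusted p = 1.4e-08) and Vegfa, the vascular growth factor, rose from 60.7 ± 7.74 to 132 ± 4.59 TPM (1.12). After median-ratio scaling Vegfa changed by 0.96 and was no longer called.

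Axial and disc regulators such as the Pax, Fox and Meox factors of the sclerotome had 12 of 18 tested and none called by this measure, although 4 rose and 5 fell (median -0.03). After median-ratio scaling 1 rose and 6 fell (median -0.17), with quantile normalization 3 rose and 6 fell (median -0.23), and 1 was called lower under each. That one was Uncx, a sclerotome homeobox factor named after its value was seen, which went from 1.98 ± 0.0933 to 0.493 ± 0.122 TPM.

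**Figure D4:**
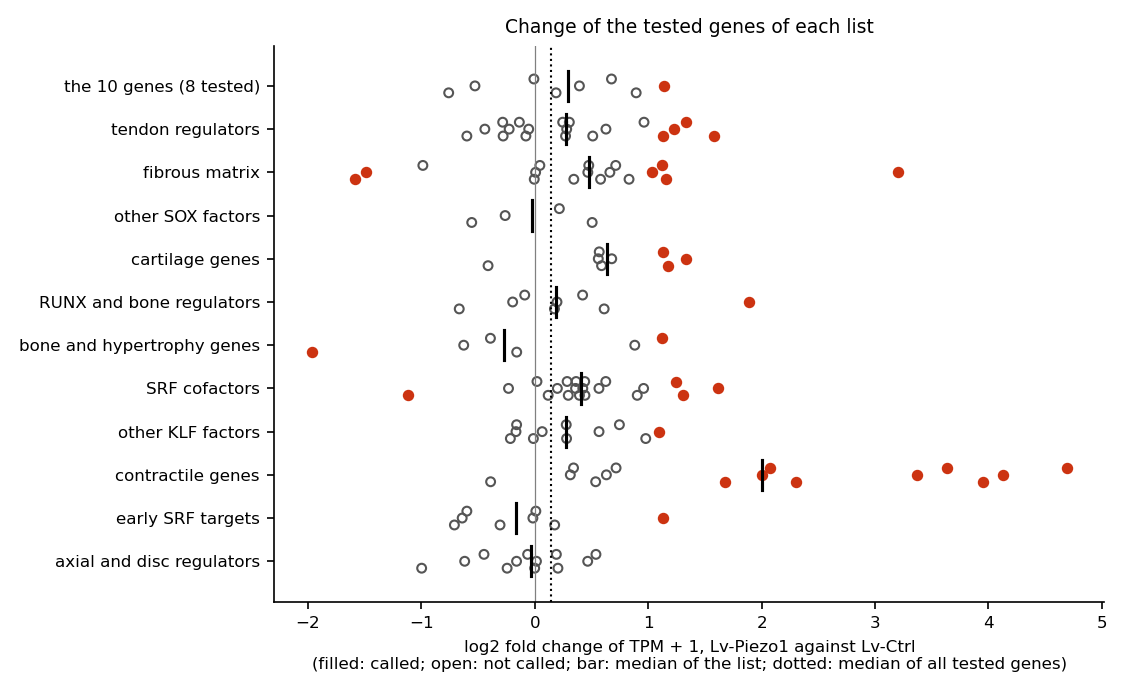
Log2 change of TPM + 1 (horizontal axis, Lv-Piezo1 against Lv-Ctrl) of each tested gene, for the 10 genes and the 11 lists, filled where called, with the median of a list as a bar and that of all tested genes as a dotted line. Contractile genes reach 4.69 with a median of 2.01, while early SRF targets have a median of -0.16.

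The 6 markers of the annulus had a summed TPM of 7022 to 7876 in Lv-Ctrl and 10300 to 11000 in Lv-Piezo1, carried mostly by Col1a1 and Col1a2. Of them 3 rose (Col1a1, Col1a2 and Comp), Dcn and Fmod fell, and Comp averaged below 1 TPM in Lv-Ctrl. Of 10 smooth muscle and pericyte markers 5 were called higher and 2 lower among 9 tested, with sums of 563 to 606 and 681 to 707 TPM. Of those 5, Myh11, Cnn1, Lmod1 and Des, are also on the contractile list. Markers shared with pericytes moved both ways. Mcam was the remaining called rise (7.17 to 62.2 TPM), Cspg4 (29.5 to 51.1 TPM) and Pdgfrb (106 to 118 TPM) rose without being called, and Kcnj8 (326 to 39.1 TPM) and Abcc9 (73.7 to 12.3 TPM) were the called falls. The log2 change of Pdgfrb (0.15) was close to the median of all tested genes (0.14). The skeletal muscle factors Myod1, Myf5, Myog and Pax7 were listed at 0 everywhere, while the sum of 7 skeletal markers spanned 2.90 to 36.1 TPM in Lv-Ctrl and 9.51 to 12.0 in Lv-Piezo1. Tbxt, Noto and Shh, which define the nucleus pulposus, were listed at 0 everywhere, and the sum of the 6 markers found was 5.78 to 6.68 TPM in Lv-Ctrl and 22.1 to 26.7 TPM in Lv-Piezo1, mostly through Cd24 (3.79 and 21.9 TPM). The 6 chondrocyte markers summed to 37.5 to 46.9 and 54.1 to 57.3 TPM, with 4 of 6 below 1 TPM. Acan rose (31.6 to 47.1 TPM) and Hapln1 fell (10.7 to 7.73 TPM), and neither was called. The 5 osteoblast markers summed to 185 to 212 and 152 to 164 TPM, with Bglap at 0 and Sp7 at 0.055 TPM or less in the mean. Ibsp fell (199 to 151 TPM) and Dmp1 rose (1.66 to 3.89 TPM), and neither was called. The 6 macrophage markers summed to 21.3 to 23.3 and 37.1 to 41.9 TPM, with Adgre1 at 0. Most of that rise came from Cd68, which went from 0.955 ± 0.899 to 12.3 ± 0.901 TPM. Cd68 was called higher (log2 change 2.88, adjusted p = 2.7e-05) and passed the filter through the higher group. Cd14 went from 20.9 ± 0.324 to 25.8 ± 1.91 TPM. The 6 endothelial markers stayed below 1 TPM in sum in every sample. The part of other cells in the values of the 10 genes was not tested.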

How the data were processed

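RNA of 4 Lv-Ctrl and 4 Lv-Piezo1 AFC samples had been sequenced. The authors filtered reads, mapped them with HISAT2 and built transcripts with StringTie, and they deposited TPM per gene, rounded to 2 decimals, with a mean column per group that was not used. The methods name FPKM and DESeq, and the submitters' processing notes name DESeq2 and the build mm10, although the identifiers are those of rat. The annotation is not given in the sources used here. TPM keeps no depth, so depth is unknown and precision rests on the 4 samples of a group.

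Rows whose TPM averaged 1 or more across the samples (13103) entered a limma model (version 3.58.1, under R 4.3.3) on log2(TPM + 1) (trend, empirical Bayes, Benjamini-Hochberg adjustment over all tested genes). A call needed a log2 change of 1 or more in size and an adjusted p under 0.05. Single genes were also compared by an exact two-sided permutation test over 70 relabelings, whose smallest p is 0.0286, the value for each gene without overlap. The fit was tested on simulated data of 12964 genes, where it called 197 of 200 changed genes and 2 unchanged ones.

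The members and lists were chosen with earlier results of these data known. The ratios and promoter motifs were chosen after values were seen. Named are the 10 genes, Piezo1, per list up to 2 called rises and 2 called falls, and the 2 genes most like each called member, and others are marked. Overlapping genes and promoter windows came from RefSeq (GRCr8), which need not be the build of the table, and all 10 genes had an entry. Alternatives were a pseudocount of 0.1, other filters, median-ratio scaling, quantile normalization, no trend, a replicate block and leaving out each sample.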

Additional observations from a re-analysis of the deposited data

Results flagged for a closer look

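In 2 of the 20 sets of 4 values (10 genes, 2 groups) a sample stood far from the other 3 of its group, relative to the range of that group. Chance alone marks about 1 in 20 such sets if the values vary continuously. That rate does not hold for Tnmd, where a single value above 0 is always marked and a set listed at 0 throughout cannot be. Tnmd had 0.08 TPM in replicate 4 of Lv-Piezo1 and was listed at 0 in replicates 1, 2 and 3. Myocd had 2.88 TPM in replicate 2 of Lv-Piezo1, the lowest of that group, while the other samples lay between 3.03 and 3.06 TPM, and the whole range was small beside the difference from Lv-Ctrl.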

How the results depend on the processing

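The number of the 10 genes called was 1 as reported and 0 under 2 alternatives. With a mean TPM of at least 5 it was 0 because Myocd was left out by the filter, and 628 of all genes were called against 1005. With quantile normalization it was 0 because Myocd changed by 0.92. The number with an adjusted p below 0.05 stayed between 6 and 7 when each sample was left out. Scx, Mkx, Sox5, Runx2, Srf and Myocd kept their direction and an adjusted p below 0.05 under each alternative in which they were tested. Sox9 ranged from -0.0701 to 0.0316 on the log2 scale when each sample was left out and crossed 0, and it was -0.23 under quantile normalization (adjusted p = 0.033). Klf4 passed the threshold in 2 of the leave-one-out fits, as given beside its values.

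With the replicate block 1 of the 10 genes was called, 6 had an adjusted p below 0.05 and 1004 of all genes were called, and no call among the 10 changed. Deviations of same-numbered samples from their group means correlated at -0.03, -0.06, -0.05 and -0.01, and no sample correlated best with its own number. The study counts the cultures of one cell isolation as one repeat, so samples of both groups may share an isolation. The labels do not say whether a replicate number marks one, and these correlations do not settle it.

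TPM shows changes relative to the rest of a library, and the reads behind low genes such as Tnmd, Sox6 and Myocd are unknown.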
